A study of Mus musculus with 2 samples.

Results

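A set of 10 Notch pathway genes was followed in dissected ureters of mouse embryos: the receptors Notch1, Notch2, Notch3 and Notch4, the ligands Jag1, Jag2, Dll1 and Dll4, and the nuclear effectors Hey1 and Heyl. They were taken by gene name from a 2-colour oligonucleotide microarray, with every non-control probe of each gene. These were 12 of the 39429 probes on the array and 10 of the 21097 genes that passed a filter on dim probes. All 10 genes were measured, and 11 of the 12 probes passed that filter.

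Ureters came from male NMRI embryos at stage E13.5, counted in days of embryonic development. Tbx2-GOF embryos, in which the T-box repressor gene Tbx2 gains function, had the genotype Tbx18(cre/+);Hprt(Tbx2/Y). Control embryos were Tbx18(+/+);Hprt(Tbx2/Y), so the Tbx2 allele at Hprt, an X-linked locus, was shared by both genotypes and cre was present in Tbx2-GOF alone. The cre sits at Tbx18, so 1 of their Tbx18 alleles is altered as well, and no group with cre alone was analysed here. Each of 2 arrays held 1 Tbx2-GOF and 1 control extract, with the dyes exchanged between arrays: Tbx2-GOF was red on array 1 and green on array 2. No label tells whether the arrays used separate embryos. The p-values below therefore rest on these arrays alone and could be technical. Each gene's p-value and confidence interval draw mostly on a spread that limma shares over all tested genes. An interval can thus be wide beside a small SD.

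Notch receptors are single-pass membrane proteins that are cut when a Jagged or Delta ligand on a neighbouring cell binds them. The freed intracellular part enters the nucleus, joins the DNA-binding protein RBPJ and a Mastermind coactivator, and switches on target genes, among them repressors of the HES and HEY families. In developing organs the pathway is best known from arterial endothelium, from pericytes and vascular smooth muscle, and from neural progenitors, and it acts in nephron patterning in the kidney. TBX2 is itself a T-box repressor that binds DNA.

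The labelled tissue was checked first. Upk1b and Upk3a, which encode plaque proteins of the urothelium, and Tbx18, a transcription factor of ureteric mesenchyme, were well above background in both extracts on both arrays. The gained gene, Tbx2, had log2 ratios of 0.04 and 0.56 on arrays 1 and 2, a mean of 0.30 that missed the threshold (adjusted p = 0.711). Tbx18 was at -0.31 and -0.59 (adjusted p = 0.266). Of all tested genes, 135 passed limma's adjusted threshold of 0.05. Signals well above background were found for 66.7% and 72.7% of probes in Tbx2-GOF extracts on arrays 1 and 2, against 70.5% and 66.4% in control extracts. No probe was saturated. The number of arrays limits the precision.

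No Notch receptor, ligand or HEY gene passed the adjusted threshold of limma, against 0.64% of all tested genes. At an unadjusted p under 0.05 there were 3 of 10, Dll1, Heyl and Jag1, each higher in Tbx2-GOF ureters, against 5.63% of all genes higher at that level. A ratio above 0 on both arrays was found for 9 of the 10 genes, against 26.1% of all genes. None was below 0 on both, against 25.1% of all genes, and Notch1 had opposite signs. The count of 9 depends on the normalization. With the signals processed by the scanning software, Notch2 was at -0.02 on array 2 and Dll4 at -0.04 on array 1. None of the 10 genes was at least 1.5-fold higher on both arrays, against 0.825% of all genes. In 4 of 10 genes, Notch2, Notch3, Jag2 and Dll1, both Tbx2-GOF values lay above both control values, against 18.2% of all genes. The median log2 ratio over the 10 genes was 0.28, with 0.34 on array 1 and 0.13 on array 2, where the median of all tested genes was 0.00 on each array. Because these genes were chosen with earlier results of these data known, the counts describe them and were given no test.

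**Figure D1:**
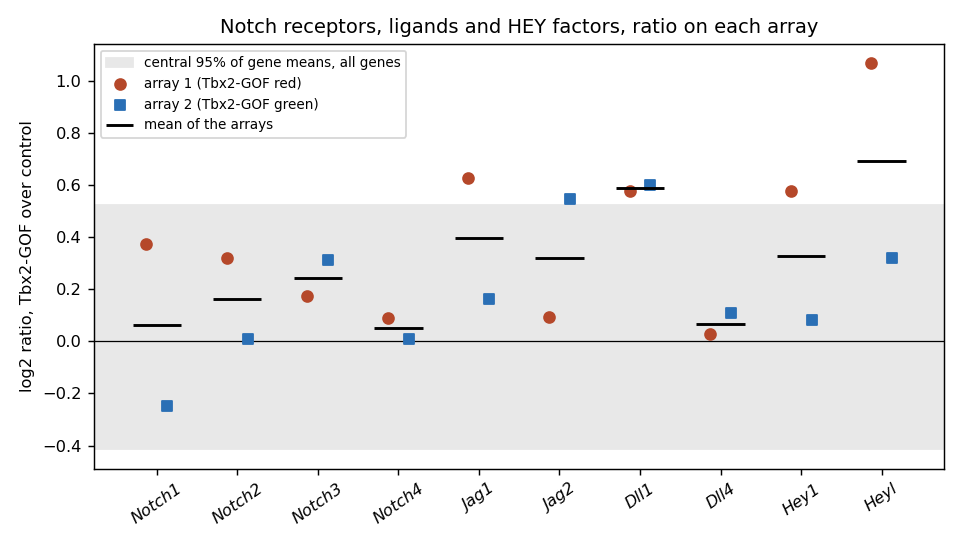
Log2 ratio of Tbx2-GOF over control (vertical axis) of each gene (horizontal axis) on array 1 (circles) and array 2 (squares), with the mean of both arrays as a bar and the central 95% of gene means over all tested genes, -0.41 to 0.52, in grey. Only the means of Dll1 (0.59) and Heyl (0.69) lie above the grey band, and the Dll1 points nearly coincide while the Heyl points lie far apart.

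The 4 ligands had a median log2 ratio of 0.36, the 2 HEY genes of 0.51 and the 4 receptors of 0.11. In each role the mean ratios were all above 0, and the lowest of any gene was 0.05, for Notch4.

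Among the ligands, Dll1, which encodes the Delta ligand of somite patterning and neurogenesis, had the steadiest difference. It was averaged over more spots than those of the other genes. Its normalized intensity was 1048 and 1254 in Tbx2-GOF ureters on arrays 1 and 2, against 703 and 828 in control ureters. Both Tbx2-GOF values lay above both control values, and the ratio was nearly the same in either dye orientation. The log2 ratio was 0.58 on array 1 and 0.60 on array 2, a mean of 0.59 ± 0.02 (SD, n = 2), or 1.5-fold, with a 95% confidence interval of 0.29 to 0.89. The unadjusted p of limma was 0.00226 and the adjusted p 0.127, so the gene did not pass the threshold. Its mean ranked 431st from the top of 21097 genes.

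Dll1 was also the member with the most spots. Its probe, at chr17:15504623-15504682 on the minus strand of mm9, was printed 10 times on each array. On array 1 the 10 spots gave log2 ratios of 0.46 to 0.74, with a median of 0.58. On array 2 the 8 spots left after 2 were flagged gave 0.45 to 0.67, with a median of 0.62. Every usable spot was therefore above 0 on both arrays. Spots of 1 array share its extracts and are no replicates of the genotype. The Dll1 ratio of each array averages these spots, while every other member probe had 1 spot. Its small SD is therefore not comparable with theirs.

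Jag1, the Jagged ligand that is mutated in Alagille syndrome, was higher in Tbx2-GOF ureters on both arrays but unevenly. Its intensity was 3493 and 4353 in Tbx2-GOF ureters, against 2263 and 3887 in control ureters. The groups overlapped, since the control value of array 2 exceeded the Tbx2-GOF value of array 1. The log2 ratio was 0.63 on array 1 and 0.16 on array 2, a mean of 0.39 ± 0.33 (SD, n = 2), or 1.31-fold (95% confidence interval 0.03 to 0.76, unadjusted p = 0.0359, adjusted p = 0.456).

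Jag2, the second Jagged ligand, had an intensity of 577 and 706 in Tbx2-GOF ureters, against 541 and 483 in control ureters. The groups did not overlap, but here the larger difference was on array 2. The log2 ratio was 0.09 on array 1 and 0.55 on array 2, a mean of 0.32 ± 0.32 (SD, n = 2; adjusted p = 0.630). Dll4, the Delta ligand of arterial endothelium and of sprouting tip cells, differed least of the ligands. Its intensity was 312 and 295 in Tbx2-GOF ureters, against 306 and 274 in control ureters. The groups overlapped, and the mean log2 ratio of 0.07 ± 0.05 (SD, n = 2) had an interval of -0.23 to 0.37.

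Of the receptors, Notch3, the receptor of pericytes and vascular smooth muscle, had the highest mean ratio. Its intensity was 7701 and 7738 in Tbx2-GOF ureters, against 6827 and 6232 in control ureters. The Tbx2-GOF values were almost equal and lay above both control values. Log2 ratios were 0.17 and 0.31, a mean of 0.24 ± 0.10 (SD, n = 2), or 1.18-fold (95% confidence interval -0.06 to 0.55, adjusted p = 0.710).

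Notch2, the receptor required for proximal nephron fates in the kidney, had an intensity of 6606 and 5855 in Tbx2-GOF ureters, against 5301 and 5822 in control ureters. The groups did not overlap, yet on array 2 the extracts were nearly equal. Log2 ratios were 0.32 and 0.01, a mean of 0.16 ± 0.22 (SD, n = 2; adjusted p = 0.933). The second Notch2 probe, at chr3:97951233-97951292, was well above background in each channel on 1 of 2 arrays and was left out of the test. Its log2 ratios were -0.05 and 0.20.

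Notch4, a receptor largely restricted to endothelium, had an intensity of 2806 and 2926 in Tbx2-GOF ureters, against 2635 and 2908 in control ureters. Its groups overlapped, with a mean log2 ratio of 0.05 ± 0.06 (SD, n = 2) and an interval of -0.25 to 0.35.

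Notch1, the founding receptor of the mammalian family, was the gene with opposite signs. Its brighter probe gave 418 and 304 in Tbx2-GOF ureters, against 323 and 361 in control ureters. The Tbx2-GOF value was the higher on array 1 and the lower on array 2. The log2 ratio was 0.37 and -0.25, a mean of 0.06 ± 0.44 (SD, n = 2; 95% confidence interval -0.34 to 0.46). The other kept probe, at chr2:26314630-26314689 and nearer the end of the transcript, gave 221 and 206 in Tbx2-GOF ureters, against 195 and 179 in control ureters. With that probe the groups did not overlap, and the log2 ratio was 0.18 and 0.20, a mean of 0.19 (adjusted p = 0.927 in a fit with every probe). The sign on array 2 thus differed between the probes of this gene. The probe with the opposite signs, at chr2:26319440-26319499 on the minus strand of mm9, starts at base 5898 of its transcript against base 8221 for the other. It is shown because the direction given for Notch1 rests on the probe:
Notch1 probe: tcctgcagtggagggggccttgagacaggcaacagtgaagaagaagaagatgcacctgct

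**Figure D2:**
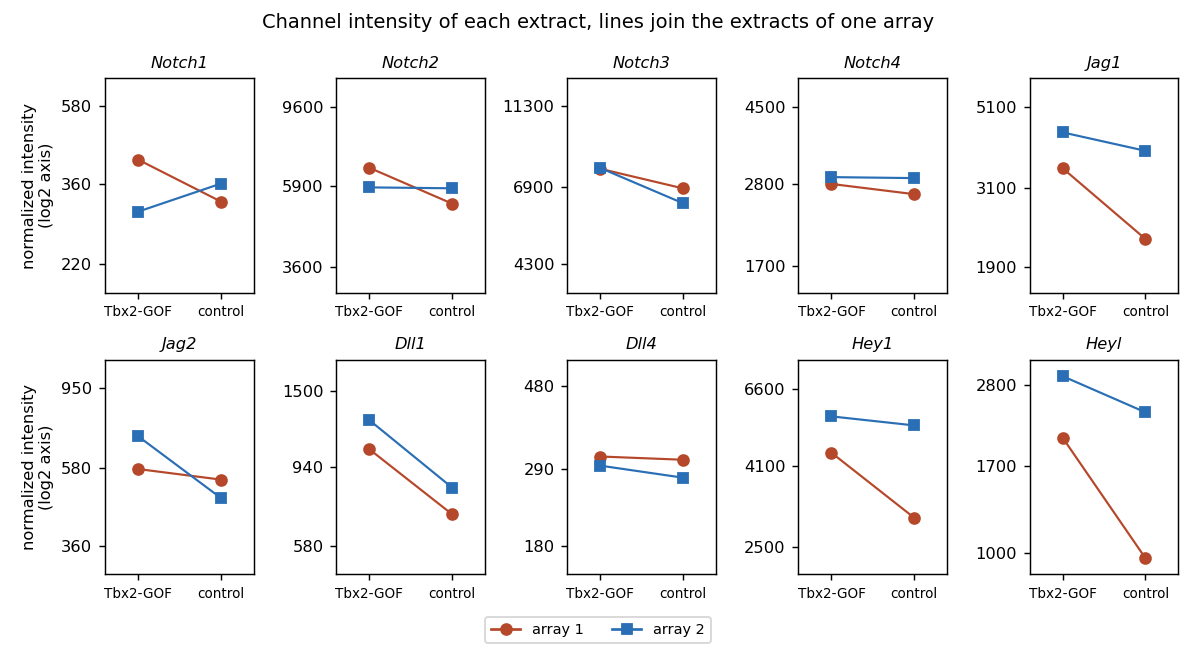
Normalized channel intensity (vertical axis, log2 scale, a separate range for each gene) of the Tbx2-GOF extract, at left, and the control extract, at right, with lines joining the extracts of array 1 (circles) and array 2 (squares). The lines of Dll1 run parallel, those of Notch1 cross, and for Jag1, Hey1 and Heyl the control extract of array 1 is the lowest of the 4 values.

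The HEY genes encode basic helix-loop-helix repressors that Notch signalling switches on. Heyl, known from vascular smooth muscle, had the highest mean ratio of the 10 genes. Its intensity was 2029 and 2960 in Tbx2-GOF ureters, against 969 and 2371 in control ureters. The Tbx2-GOF extract was the higher on each array, but the control value of array 2 exceeded the Tbx2-GOF value of array 1, so the groups overlapped. The log2 ratio was 1.07 on array 1 and 0.32 on array 2, a mean of 0.69 ± 0.53 (SD, n = 2), or 1.62-fold (95% confidence interval 0.25 to 1.13). The unadjusted p was 0.00715, the adjusted p 0.206, and the mean ranked 318th from the top.

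Hey1, a HEY repressor of endothelium and other Notch-responsive cells, showed the same unevenness at a smaller size. Its intensity was 4448 and 5562 in Tbx2-GOF ureters, against 2983 and 5261 in control ureters. The groups overlapped as they did for Heyl. Log2 ratios were 0.58 and 0.08, a mean of 0.33 ± 0.35 (SD, n = 2; 95% confidence interval -0.04 to 0.70, adjusted p = 0.633).

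The uneven ratios of Heyl, Hey1 and Jag1 came with a shift between the arrays that both extracts showed. For Heyl, the log2 intensity on array 2 minus that on array 1 was 0.55 in Tbx2-GOF and 1.29 in control extracts. For Hey1 these shifts were 0.32 in Tbx2-GOF and 0.82 in control extracts, and for Jag1 0.32 in Tbx2-GOF and 0.78 in control extracts. Over all tested genes the median shift was -0.01 in either genotype, and 0.313%, 1.30% and 1.53% of genes had a control shift as high as those of Heyl, Hey1 and Jag1. Dll1 shifted by a similar amount in both, 0.26 in Tbx2-GOF and 0.24 in control extracts. Each control extract was read in another dye on another array, so extract, array and dye cannot be told apart as the source of such a shift. Of the 10 genes, 6 had the higher ratio on array 1 and 4 on array 2.

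**Figure D3:**
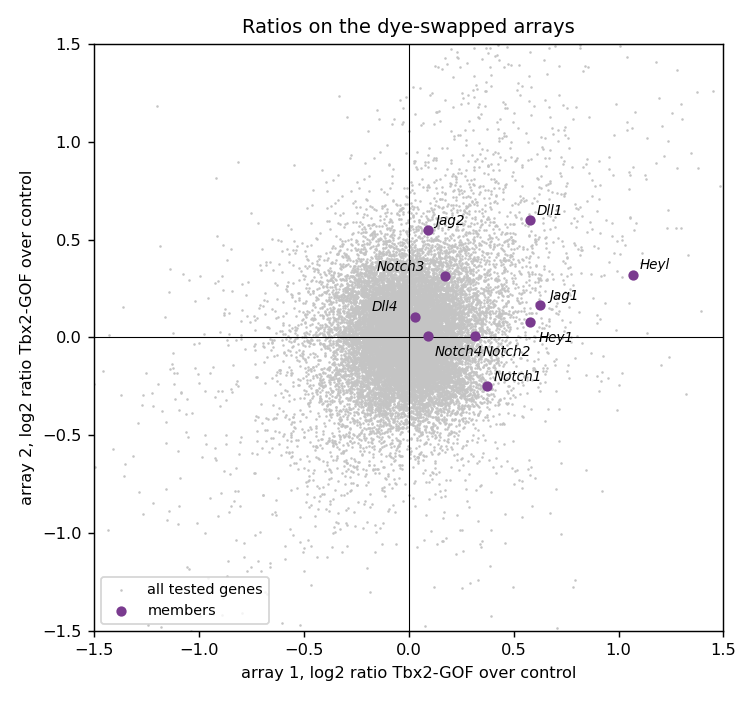
Log2 ratio of Tbx2-GOF over control on array 1 (horizontal axis) against array 2 (vertical axis) for all tested genes in grey and the 10 Notch pathway genes in purple; 157 genes with a ratio beyond 1.5 in size on either array lie outside the axes. Dll1 lies near the diagonal, Heyl, Hey1 and Jag1 lie towards the array 1 axis, Jag2 lies towards the array 2 axis, and Notch1 alone has opposite signs.

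The other genes of the pathway had a median nearer 0. Of 49 listed, 48 were measured (Hes3 was not), and none passed limma's adjusted threshold in either direction. At an unadjusted p under 0.05 there were 4, Dll3, Mfng, Spen and Hes5, with ratios above 0, against 5.63% of all genes higher at that level. Hes5 passed the dim filter through its Tbx2-GOF values alone, so its direction lends the count no support. Ratios were above 0 on both arrays for 19 of 48 genes (26.1% of all genes), below 0 on both for 6 (25.1% of all genes), and of opposite sign for 23 (48.8% of all genes). The median log2 ratio was 0.07, with 0.05 on array 1 and 0.10 on array 2, against 0.28 for the 10 genes above. The HEY gene outside the 10, Hey2, was at 0.32 on array 1 and -0.23 on array 2.

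By role, the other ligands had a median of -0.01. Dll3, a Delta relative that acts within the cell in somites, was highest at 0.50, with 0.29 and 0.72 on the arrays (adjusted p = 0.252), and Dlk2 lowest at -0.17. Among the glycosyltransferases that modify the receptors, with a median of 0.06, the fringe enzyme gene Mfng was highest at 0.49, with 0.57 and 0.41 (adjusted p = 0.201). Its intensity was 10204 and 10071 in Tbx2-GOF ureters, against 6864 and 7601 in control ureters, with no overlap. Poglut1, which adds O-glucose to the receptors, was lowest at -0.16.

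The ubiquitin ligases of ligand endocytosis had a median of 0.10, between Mib2 at 0.16 and Neurl1b at -0.03. The proteases that cut the receptors had a median of 0.08, between the gamma-secretase subunit gene Ncstn at 0.30 and the sheddase gene Adam17 at -0.14. In the nuclear complex the median was 0.05. There the corepressor gene Spen was highest at 0.36 (adjusted p = 0.433) and the acetyltransferase gene Kat2b lowest at -0.29, while Rbpj itself was at -0.16. Genes of receptor turnover had a median of 0.09, between the Deltex gene Dtx1 at 0.24 and Numbl at -0.07.

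The other target genes had a median of 0.04. Hes5, a repressor of neural progenitors that responds to Notch, was highest at 0.56, at 0.31 and 0.81 on arrays 1 and 2 (adjusted p = 0.226). It was dim, at 148 and 173 in Tbx2-GOF ureters against 120 and 99.0 in control ureters, and in control extracts it was well above background on 1 of 2 arrays. Id3, an inhibitor of helix-loop-helix factors, was lowest at -0.14. Widely used targets outside the rule for named genes were added after their values were seen: Nrarp was at 0.32 and Hes1 at -0.05. HEY and HES genes thus did not share a direction on both arrays, since Hes1 was at 0.16 and -0.27.

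Promoters were read from RefSeq for GRCm38.p6, as 250 bases before to 50 after the start of each gene. Of the 10 genes 8 matched, with 9 promoters, because Dll1 has 2 starts; the other two, Hey1 and Heyl, did not match, so the counts below leave out the HEY genes. The letters TGGGAA, the core of the site bound by RBPJ, or their reverse complement TTCCCA, stood in 0 of the 9 promoters and in 25.6% of all 32851. The letters GGTGTGA, the core of the T-box site, or TCACACC, stood in 0 of the 9 and in 3.98% of all. The median GC content was 63.7% in the 9 promoters and 52.7% in all. The promoter of Dll1, whose ratio was the steadiest, is shown at its upstream start (chr17:15376883-15377182, minus strand), and those of the target genes Hes5 (chr4:154960673-154960972, plus strand) and Hey2 (chr10:30842734-30843033, minus strand) are shown because each holds 2 RBPJ letter matches, given in capitals:
Dll1: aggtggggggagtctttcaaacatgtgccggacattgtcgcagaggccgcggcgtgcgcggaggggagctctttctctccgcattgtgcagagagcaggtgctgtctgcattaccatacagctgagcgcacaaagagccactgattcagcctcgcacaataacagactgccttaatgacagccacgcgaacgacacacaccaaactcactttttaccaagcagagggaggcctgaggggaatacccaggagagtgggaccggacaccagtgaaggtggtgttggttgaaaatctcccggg
Hes5: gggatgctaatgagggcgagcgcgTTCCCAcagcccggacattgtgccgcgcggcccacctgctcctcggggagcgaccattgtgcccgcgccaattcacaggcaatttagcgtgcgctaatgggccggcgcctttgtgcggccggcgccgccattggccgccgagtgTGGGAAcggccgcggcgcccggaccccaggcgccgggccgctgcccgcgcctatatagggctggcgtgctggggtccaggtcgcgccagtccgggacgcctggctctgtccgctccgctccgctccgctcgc
Hey2: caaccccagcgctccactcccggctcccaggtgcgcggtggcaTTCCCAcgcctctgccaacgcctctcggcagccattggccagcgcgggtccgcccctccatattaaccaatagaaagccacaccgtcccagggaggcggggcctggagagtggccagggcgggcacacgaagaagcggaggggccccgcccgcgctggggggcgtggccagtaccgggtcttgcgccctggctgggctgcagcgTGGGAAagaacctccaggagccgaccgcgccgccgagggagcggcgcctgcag

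The Hes5 matches lie at -82 and -226 bases from the start and those of Hey2 at -3 and -207. On the arrays Hey2 was of opposite sign. Hes5 was above 0 on both, but it passed the dim filter through its Tbx2-GOF values alone, so its direction is not read. Promoters of the other target genes were not examined singly, so the share of targets with such letters is not given. A letter match describes the sequence and is no evidence of binding.

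Several cell types express these genes, so marker lists were set beside them. In whole ureters, fewer cells of a type and less RNA per cell cannot be told apart. Of 14 measured endothelial markers (Erg was not measured), 11 were above 0 on both arrays and none was below 0 on both, against 26.1% and 25.1% of all genes. None passed limma's adjusted threshold, against 0.64% of all genes. Kdr, Emcn, Cldn5, Egfl7 and Plvap had an unadjusted p under 0.05 with higher values in Tbx2-GOF, against 5.63% of all genes; all but Plvap were named after their values were seen. Their median log2 ratio was 0.27, with 0.39 on array 1 and 0.16 on array 2, beside 0.34 and 0.13 for the 10 Notch pathway genes. Plvap, which encodes a protein of endothelial diaphragms, was highest at 0.41, and Tek, the angiopoietin receptor gene, lowest at 0.02. The summed intensity of the list was 108150 and 110010 in Tbx2-GOF ureters, against 87467 and 91257 in control ureters. Dll4 and Notch4, the most endothelial of the 10 genes, were at 0.07 and 0.05. The part of endothelial content in the ratios was not tested.

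Mural cells, the pericytes and smooth muscle around vessels where Notch3 and Heyl are known to be expressed, gave a mixed list. Of 9 markers 3 were above 0 on both arrays and 4 below, against 26.1% and 25.1% of all genes, with a median of 0.03. Ndufa4l2 was highest at 0.80 and Anpep lowest at -0.58. Of the pericyte markers, named after their values were seen, Rgs5 and Pdgfrb were at 0.47 and 0.38. Cspg4, Kcnj8 and Abcc9 were at -0.21, -0.40 and -0.05, below 0 on both arrays. The summed intensity, in which bright genes weigh most, was 47951 and 45816 in Tbx2-GOF ureters, against 39807 and 39705 in control ureters. The part of mural cells in the ratios of Notch3 and Heyl was not tested.

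Neural and Schwann markers had the highest median of the marker lists, and Dll1, Dll3 and Hes5 are known from neural cells. Of 14 markers 13 were above 0 on both arrays, against 26.1% of all genes. Past limma's adjusted threshold, which 0.64% of all genes passed, 2 rose: Fabp7 at 1.57 (adjusted p = 0.0190) and Th, the tyrosine hydroxylase gene, at 1.34 (adjusted p = 0.0431). With normalization by median centring no gene was called, these and the marker genes called below included. S100b was lowest at 0.04. The list's median was 0.97, with 0.47 on array 1 and 1.66 on array 2. Its summed intensity was 135971 and 143168 in Tbx2-GOF ureters, against 92465 and 51278 in control ureters, so the arrays differed mainly in the control extract. Dll3 was at 0.29 and 0.72 on arrays 1 and 2, and Dll1 at 0.58 and 0.60. Hes5 passed the dim filter through its Tbx2-GOF values alone, so its ratios are not set beside the list. The part of neural cells in these ratios was not tested.

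Some markers of other neighbouring tissues differed between Tbx2-GOF and control extracts as well. Genotype and the tissue taken along with each extract cannot be told apart here. Of 10 nephron and collecting duct markers 2 passed limma's adjusted threshold, against 0.64% of all genes. Six2 rose to a log2 ratio of 1.85 and Pax8 to 0.95 (adjusted p = 0.00624 and 0.0398), and Sall1 was lowest at -0.46. On both arrays 5 were above 0 and 2 below 0, against 26.1% and 25.1% of all genes. The list's median was 0.33 and its summed intensity 52105 and 48756 in Tbx2-GOF ureters, against 41435 and 38288 in control ureters. Skeletal muscle markers had a median of -1.47 over 9 measured genes, with Pax3 highest at 0.42 and Ttn lowest at -1.99. Of these, 3 genes fell past the threshold, which 0.64% of all genes passed: Myh8, Acta1 and Chrna1, named after their values were seen. The summed intensity of the muscle list was 5560 and 15592 in Tbx2-GOF ureters, against 25820 and 30061 in control ureters. Gonad and adrenal markers had a median of 0.00 over 5 measured genes. On both arrays 2 were above 0 and 2 below 0, against 26.1% and 25.1% of all genes. They ran between Akr1b7, which rose by 3.27, and Lhx9, which fell by 0.91 on the log2 scale. Between them Nr5a1, Star and Cyp11a1 were at 0.00, 0.18 and -0.12. Lhx9 was well above background in Tbx2-GOF ureters on 1 of 2 arrays and was kept through its control values, so the size of its fall is uncertain and its direction follows the filter. Afp, the alpha-fetoprotein gene of fetal liver and yolk sac, fell by 2.95 and was the lowest of the blood and liver list, in which Alb, the albumin gene, fell by 2.15 as well and Hbb-bh1 was highest at 0.05. The part of these tissues in the ratios of the Notch pathway genes was not tested.

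The markers of the ureter itself had medians near 0. Urothelial markers had a median of -0.01, with Upk2 highest at 0.84 and Upk3a lowest, having fallen by 0.86 (adjusted p = 0.0450), and Upk1b was at -0.41. Markers of ureteric mesenchyme had a median of -0.03, between Tagln, a smooth muscle gene, at 0.25 and Tbx18 at -0.45.

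**Figure D4:**
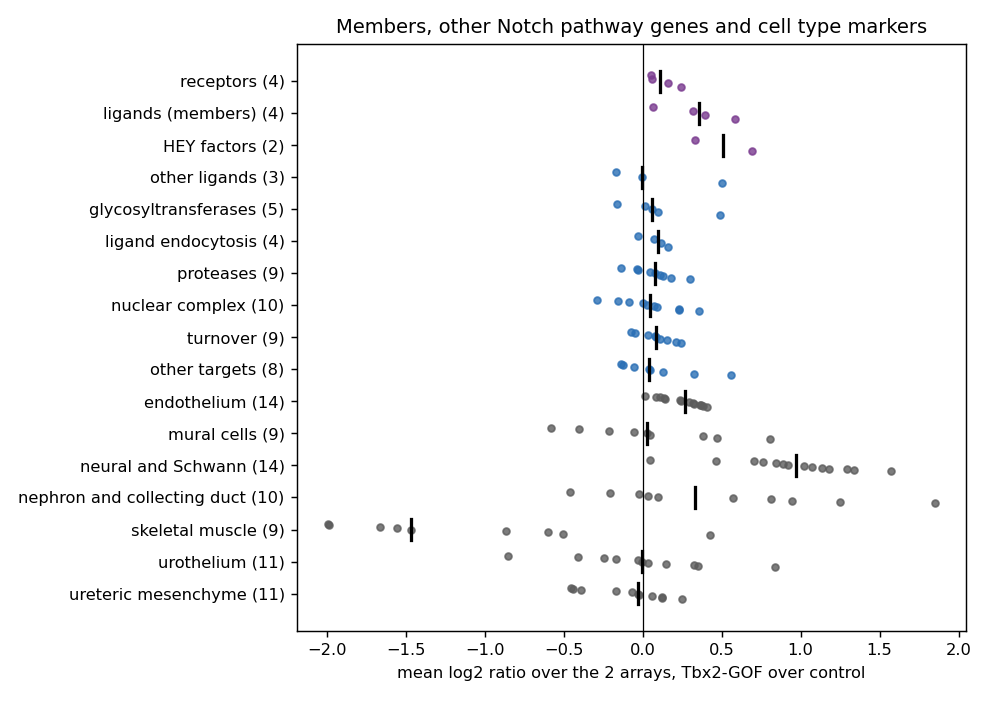
Mean log2 ratio over both arrays, Tbx2-GOF over control (horizontal axis), of each gene (points) in the Notch pathway roles and cell type marker lists (vertical axis, number measured in parentheses), with list medians as vertical bars. Ligands and HEY factors among the 10 genes have medians of 0.36 and 0.51, the other pathway lists lie between -0.01 and 0.10, and the endothelial list is at 0.27.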

How the data were processed

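Per the submitters' processing notes, spots were quantified in Agilent Feature Extraction 10.7.3.1. Mean spot signals and local backgrounds are intensity values as scanned, per the file headers. Per the file headers, the deposited log ratio is a log10 value of red over green; the processed signals are background-subtracted and dye-normalized intensity values made by the same software. In the value table of the whole series the authors deposited a signed score whose scale, centring and direction are not stated; it was read as a linear fold ratio, positive for Tbx2-GOF over control.

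Log2 ratios were computed in R 4.3.3 with limma 3.58.1, using normexp background correction (offset 50), loess within arrays (span 0.3), no scaling between arrays, and signs turned by the labelled dyes. Control and flagged spots were left out. A probe was kept where either genotype was well above background on both arrays (26471 probes), and the brightest kept probe stood for a gene. Symbols were updated through RefSeq. Genes were tested with lmFit and eBayes, two-sided, with Benjamini-Hochberg adjustment over all 21097 genes; confidence intervals come from the same fit. Tested on simulated data, the fit recovered the signs of changed genes, but false calls exceeded the nominal share, so calls over all genes may hold more false ones than the threshold allows. Intensities printed are single channels after Aquantile normalization and hold the offset, which pulls ratios of dim probes towards 0. No gene's level was set against another's, but summed intensities add values over the probes of a list, so bright probes weigh most. The arrays shared 1 slide and 1 day of scanning. Probe coordinates come from the scanner files (mm9); no genome was used, so exon and UTR positions are not given.

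The 10 genes and all lists were chosen with earlier results of these data known. The rule for other named genes took pathway genes past the threshold (there were none), the highest and lowest of each list, and Tbx2, Tbx18, Upk1b and Upk3a; genes outside it were named after their values were seen. Alternatives covered background correction, normalization, the dim filter, the choice of probe, the variance model, the deposited values, and leaving out each array.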

Additional observations from a re-analysis of the deposited data

How the results depend on the processing

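The 10 genes were refitted under 11 alternative settings of background correction, normalization, filter, probe choice, variance model and source of values. None of the 110 fitted means passed the adjusted threshold and none changed sign. Signs on single arrays did change for Notch2 and Dll4 with the processed signals. Changing only the dim filter, the variance model or whether every probe was tested kept the same mean ratios, so their signs were fixed. The mean of probes altered Notch1 alone. Scaling could not turn a gene with the same sign on both arrays. The series table repeated the means of the processed signals for all members but Dll1. The 110 values are thus not independent checks. The lowest adjusted p was 0.0721 for Dll1 and 0.124 for Heyl, both with scaling between arrays; the highest was 0.609 for Dll1 and 0.660 for Heyl, with median centring. The number at least 1.5-fold higher on both arrays, 0 as reported, was 1 with normexp at offset 0 and 1 with the processed signals, Dll1 in both. Mean log2 ratios ranged from 0.59 to 0.62 for Dll1, 0.69 to 0.73 for Heyl and 0.06 to 0.13 for Notch1.

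Over all genes, calls numbered 0 with median centring, 0 with the processed signals and 0 with the series table. They numbered 313 with scaling, 276 with no dim filter and 211 with the mean of probes, against 135. The calls of marker genes given above therefore depend on the normalization and the source of values.

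With 1 array left out no test remained. The number of genes at least 1.5-fold apart was then 1 to 2 (Dll1 on array 2, Jag1 and Heyl on array 1), and the median log2 ratio 0.13 on array 2 alone and 0.34 on array 1 alone. Without array 1 the log2 ratio was 0.08 for Hey1, 0.16 for Jag1, 0.32 for Heyl and -0.25 for Notch1. The fit is already paired, since each ratio sets both extracts of 1 array against each other. Signal over background limits Hes5 and the second Notch2 probe.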
